A study of Rattus norvegicus with 4 samples.

Results

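The genes described here are 9 genes of cholesterol synthesis and its feedback control: Hmgcs1, Idi1, Fdft1, Sqle, Cyp51, Msmo1, Sc5d, Dhcr7 and Insig1. All probe sets whose annotation gives exactly one of these symbols were taken, which yielded 12 probe sets of 8 genes, among 12789 probe sets of 10412 named genes. No value for Hmgcs1 was analysed here. The genes were chosen by their log2 signals in these same 4 livers, where an earlier look had found them to differ between animals. Their levels and their differences between rats are therefore given as a description, without a test.

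The series holds total RNA from the livers of 4 male rats of the Sprague-Dawley strain, 10 to 12 weeks old, given no treatment and free access to feed and water. Each rat was measured on 1 Affymetrix expression array. They form 1 group of control livers, called replicates 1 to 4 as in the labels, so no groups were compared. The labels do not give the time of day, the feeding state at harvest or the lobe. A difference between rats cannot be told apart from a difference between arrays, since each rat had 1 array.

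Cholesterol is built from acetyl-CoA through mevalonate, isoprenoids, squalene and lanosterol, and most of the later enzymes sit in the membrane of the endoplasmic reticulum. The liver is a main site of this synthesis. Most genes of the pathway are targets of SREBP-2, a transcription factor that stays in that membrane, held with its escort Scap by Insig proteins, when sterols are plentiful, and moves to the nucleus when they are scarce. Insig1 is itself such a target. Besides the SREBP-2 site, their promoters often carry CCAAT boxes, where the factor NF-Y binds, and GC boxes, where Sp1 binds.

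Upstream sequence of 4 of the genes is printed to show how their promoters differ in these boxes. Each run is the 250 bases before the gene's start in RefSeq, assembly GRCr8, 5′ to 3′ on the gene's strand, which lie outside the transcript. Capitals mark CCAAT, its reverse complement ATTGG, and the core TCACNCCA of the sterol regulatory element. The regions are chr16:29746863-29747112 (plus strand) for Msmo1, chr17:66547525-66547774 (minus strand) for Idi1, chr4:8057770-8058019 (minus strand) for Insig1 and chr1:208444184-208444433 (plus strand) for Dhcr7.
Msmo1: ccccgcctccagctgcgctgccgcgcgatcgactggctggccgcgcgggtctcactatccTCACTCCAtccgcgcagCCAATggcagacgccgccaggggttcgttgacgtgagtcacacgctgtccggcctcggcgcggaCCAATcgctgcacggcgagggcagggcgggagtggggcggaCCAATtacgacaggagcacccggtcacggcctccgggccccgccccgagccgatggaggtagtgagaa
Idi1: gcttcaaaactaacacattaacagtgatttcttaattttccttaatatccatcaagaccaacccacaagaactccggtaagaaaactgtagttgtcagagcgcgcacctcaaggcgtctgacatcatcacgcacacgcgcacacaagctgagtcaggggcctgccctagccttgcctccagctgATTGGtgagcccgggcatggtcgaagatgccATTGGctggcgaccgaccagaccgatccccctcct
Insig1: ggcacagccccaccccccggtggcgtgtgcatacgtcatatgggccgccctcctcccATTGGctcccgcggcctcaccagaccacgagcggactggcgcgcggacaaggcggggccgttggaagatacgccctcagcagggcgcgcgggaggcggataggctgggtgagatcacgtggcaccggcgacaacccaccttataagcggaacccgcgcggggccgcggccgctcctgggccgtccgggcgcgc
Dhcr7: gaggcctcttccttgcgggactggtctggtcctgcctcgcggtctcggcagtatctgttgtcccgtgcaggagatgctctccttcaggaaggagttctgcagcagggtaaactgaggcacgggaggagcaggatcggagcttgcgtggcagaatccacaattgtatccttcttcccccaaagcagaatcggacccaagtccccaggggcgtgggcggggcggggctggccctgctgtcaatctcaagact

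The promoter table matched 7 of the 9 genes, Hmgcs1 among them. Motifs were searched on both strands of these 250 bases. CCAAT was present in 5 of the 7 promoters, those of Hmgcs1, Idi1, Msmo1, Sc5d and Insig1, against 34.0% of all 33469 promoters and 34.9% of the 9467 promoters of genes on the array. Msmo1 held 3 copies, starting 173, 109 and 68 bases before the gene's start, and Idi1 held 2 on the other strand, 66 and 35 bases before it. The promoters of Cyp51 and Dhcr7 held none. Of the 11 other enzymes described below, 10 had a promoter in the table, all but Pmvk, and CCAAT was present in 9 of these, all but that of Acat2. The GC box GGGCGG was present in 6 of the 7 promoters, all but that of Idi1, against 30.5% of all promoters and 55.1% of those of genes on the array. The sterol regulatory element TCACNCCAC was found in 0 of the 7 windows and in 0.974% of all promoters. Its core TCACNCCA, which the longer form contains, was found in Msmo1 alone, 190 bases before the start, and in 3.24% of all promoters. These matches describe letters in a window of fixed length and say nothing about binding.

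All values are log2 signals as deposited, so a difference of 1 is a doubling of signal on that scale. A signal is set in part by the probes, so levels are not ranked between probe sets. The arrays were on a common scale, with a median of 8.11 on each. Of 15923 probe sets, 6923 were flat, meaning equal to within 0.001 on the 4 arrays. None of the 12 probe sets described here was flat. Albumin (Alb) had a mean signal of 15.06 and 11 hepatocyte markers averaged 13.17 to 13.25 over the rats. A background level of 8.26 was set by 44 probe sets of genes of brain, pituitary, muscle, eye and testis. By mean signal all 8 measured genes lay above it, as did 49.8% of all named genes. With the muscle myosin Myh1 added to that background list the level was 10.31, and 2 of the 8 lay above it, so the level itself is loosely fixed.

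All 8 genes had their lowest signal in replicate 2, and so did all 12 of their probe sets. Among the 6002 named genes that were not flat, 25.8% were lowest in replicate 2, and among the 9000 probe sets that were not flat 25.1% were. In all 8 genes, replicate 2 lay at least 0.25 below the next lowest rat, by 0.26 to 0.76, which was the case for 0.983% of those named genes. The rule that chose the genes used these signals, so nothing is read from these shares. Replicate 1 had the highest signal in 6 of the 8 genes, against 26.8% of named genes that were not flat. Where a gene has 2 probe sets, the brighter one stands for it in these counts.

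**Figure D1:**
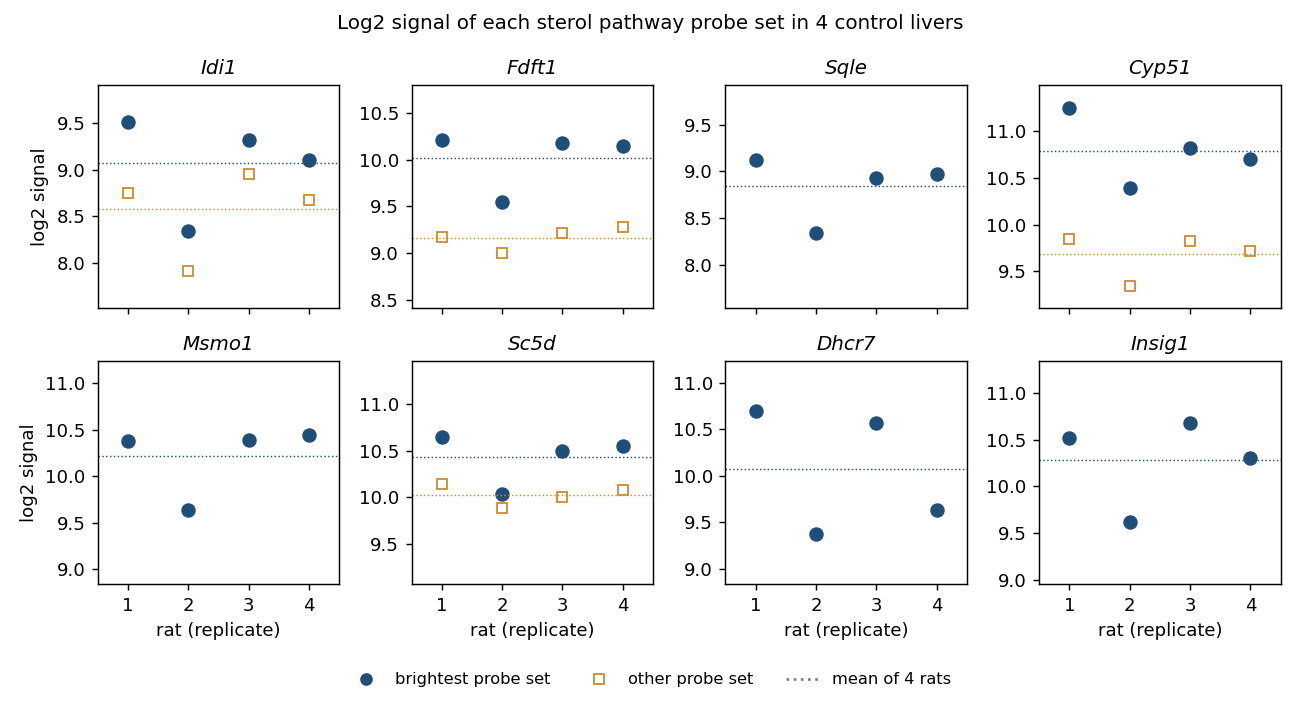
Log2 signal (vertical axis, each panel spanning the same height) of the 8 measured genes in replicates 1 to 4 (horizontal axis). Filled circles are the brightest probe set, open squares the second one where there is one, and dotted lines the mean of the 4 rats. Replicate 2 is the lowest point of every probe set, and Dhcr7 is low in replicate 4 too.

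Idi1 encodes isopentenyl-diphosphate isomerase, which interconverts the basic isoprenoid units. Its signals in replicates 1 to 4 were 9.51, 8.34, 9.32 and 9.10, with a mean of 9.07 ± 0.51 (SD, n = 4). Replicate 2 stood 0.76 below replicate 4, the next rat, while replicates 1, 3 and 4 spanned 0.41. The second probe set of Idi1 gave 8.75, 7.91, 8.96 and 8.67, and a gap of 0.76 as well. Its 7.91 in replicate 2 lay under the background level of 8.26, and the 8.34 of the brightest probe set there lay just above that level. The 2 probe sets of Idi1 thus placed replicate 2 equally far below, but put different rats on top.

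Fdft1, squalene synthase, makes the first molecule committed to sterols by joining farnesyl units. Its signals were 10.21, 9.55, 10.18 and 10.14, with a mean of 10.02 ± 0.32 (SD, n = 4). Replicates 1, 3 and 4 lay within 0.07 of each other and replicate 2 stood 0.60 below them. The second probe set of Fdft1 gave 9.17, 8.996, 9.21 and 9.28, with a smaller gap of 0.17.

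Sqle encodes squalene epoxidase, an oxygen-dependent and rate-limiting step towards the sterol ring. Its signals were 9.12, 8.34, 8.93 and 8.98, with a mean of 8.84 ± 0.34 (SD, n = 4). Replicate 2 stood 0.59 below the next rat, and the other rats spanned 0.19. The 8.34 of Sqle in replicate 2 lay just above the background level of 8.26.

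Cyp51 encodes lanosterol demethylase, a cytochrome P450 that acts on the first sterol. Its brightest probe set gave 11.26, 10.39, 10.83 and 10.70, with a mean of 10.79 ± 0.36 (SD, n = 4). Here replicate 1 stood apart above the others too: the gap under replicate 4 was 0.31 and replicates 1, 3 and 4 spanned 0.55. That probe set has the suffix s, which the maker gives to probe sets whose probes match more than a single transcript. The second probe set of Cyp51 gave 9.84, 9.34, 9.83 and 9.72. In it the high value of replicate 1 was not seen, the 3 rats spanned 0.12, and replicate 2 stood 0.38 below them.

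Msmo1 encodes methylsterol monooxygenase, which starts the removal of a pair of methyl groups from the early sterols. Its signals were 10.38, 9.64, 10.39 and 10.45, with a mean of 10.21 ± 0.39 (SD, n = 4). Replicates 1, 3 and 4 lay within 0.07 and replicate 2 stood 0.74 below, the cleanest separation among the 8 genes. Among the 7 promoters of these genes, its own, shown above, was the one with both the core of the sterol regulatory element and CCAAT boxes. Whether these letters bear on the signal was not tested.

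Sc5d, the sterol desaturase also called lathosterol oxidase, makes the substrate of Dhcr7. Its brightest probe set gave 10.65, 10.04, 10.50 and 10.55, with a mean of 10.43 ± 0.27 (SD, n = 4), the smallest SD of the 8 genes. Replicate 2 stood 0.46 below the next rat. The second probe set of Sc5d gave 10.15, 9.88, 10.01 and 10.08, where the gap of 0.13 was no wider than the 0.14 spanned by the other rats.

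Dhcr7 reduces the substrate that Sc5d makes to cholesterol. Its signals were 10.70, 9.38, 10.57 and 9.64, with a mean of 10.07 ± 0.66 (SD, n = 4), the largest SD of the 8 genes. Highest and lowest rat differed 2.50-fold in signal. Unlike the others, Dhcr7 was low in replicates 2 and 4 and high in replicates 1 and 3: the gap from replicate 2 up to replicate 4 was 0.26, against 1.06 spanned by replicates 1, 3 and 4.

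Insig1 encodes the membrane protein that retains the complex of SREBP and Scap when sterols are plentiful. Its signals were 10.52, 9.62, 10.68 and 10.30, with a mean of 10.28 ± 0.47 (SD, n = 4). Replicate 2 stood 0.69 below replicate 4, and the other rats spanned 0.38. Insig1, which restrains the pathway, was thus lowest in the same rat as the enzymes.

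The 8 genes did not differ between rats in a single way. In 6 of them (Idi1, Fdft1, Sqle, Msmo1, Sc5d and Insig1) the gap below the next rat was wider than the span of the other 3 rats, and in Cyp51 and Dhcr7 it was narrower. Replicate 4 was the second lowest in 5 genes, replicate 3 in 2 and replicate 1 in 1. Without replicate 2, the SD of Fdft1 was 0.035 and that of Msmo1 0.036, against 0.579 for Dhcr7.

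**Figure D2:**
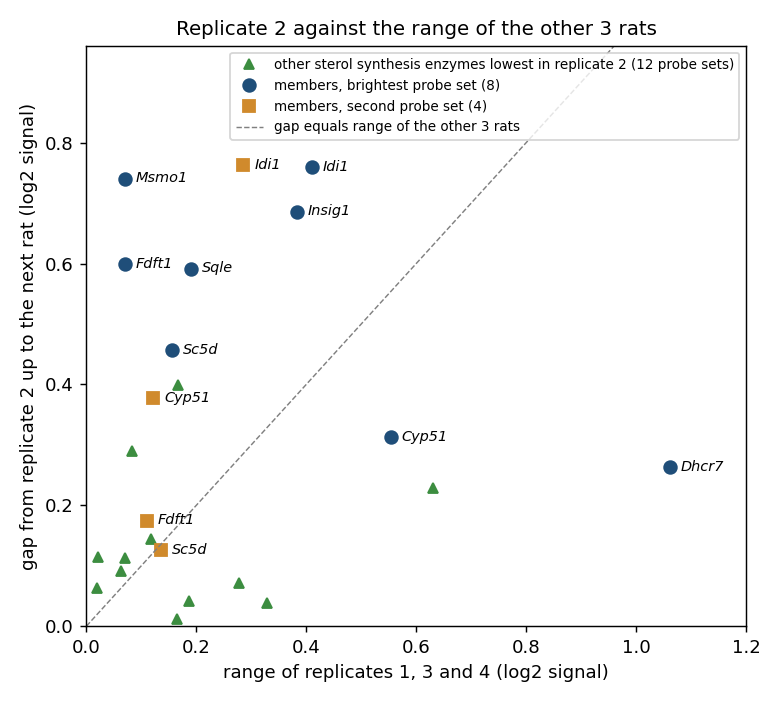
Gap from replicate 2 up to the next rat (vertical axis, log2 signal) against the range of replicates 1, 3 and 4 (horizontal axis, log2 signal), for the 8 brightest and 4 second probe sets described here and for 12 probe sets of other sterol enzymes that were lowest in replicate 2. Above the dashed line the gap is wider than that range. Dhcr7 lies far to the right with a range of 1.06, and Msmo1 and Fdft1 lie at the left with 0.07.

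The median SD of the 8 genes was 0.372, against 0.0224 over all named genes and 0.0488 over those that were not flat. Without replicate 2 it was 0.145, against 0.0461 over named genes that were not flat. Each of the 8 had a larger SD than at least 98.5% of all probe sets, and than at least 92.3% of the probe sets in the same of 10 classes of mean signal. Highest and lowest rats differed between 1.53-fold (Sc5d) and 2.50-fold (Dhcr7). As the genes were chosen for these differences, their place in the distribution is a description.

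**Figure D3:**
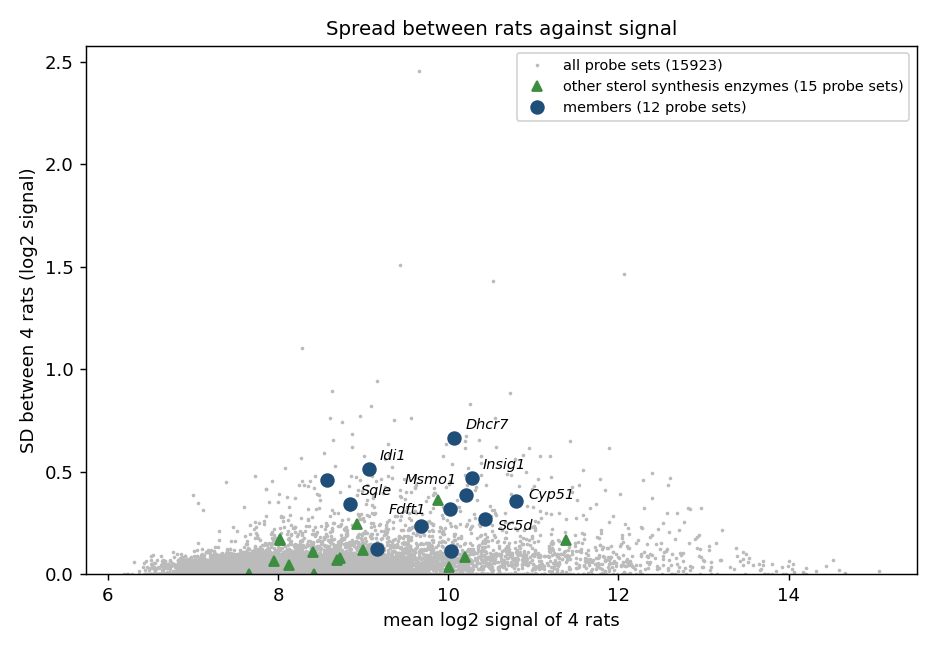
SD between the 4 rats (vertical axis, log2 signal) against mean log2 signal (horizontal axis). Grey points are all 15923 probe sets, circles the 12 probe sets described here with the brightest of each gene labelled, and triangles 15 probe sets of other sterol enzymes. The labelled circles run from an SD of 0.27 (Sc5d) to 0.66 (Dhcr7).

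The median deviation of the 8 genes from their own 4-rat means was 0.26, -0.54, 0.17 and 0.07 in replicates 1 to 4. Over all named genes it was 0.00 in every rat. With replicate 2 left out and deviations taken from the mean of the other 3 rats, the medians were 0.10, -0.01 and -0.12 in replicates 1, 3 and 4. In replicate 2 the deviations ran from -0.73 (Idi1) to -0.39 (Sc5d), so every gene was below its own mean there. In replicate 4 they ran from -0.43 (Dhcr7) to 0.23 (Msmo1).

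The rest of the pathway was taken as a list of 14 enzymes, of which 11 were measured and 10 were not flat. Of these 10, 9 were lowest in replicate 2, against 25.8% of named genes that were not flat, and so were 12 of their 13 probe sets that were not flat. By mean signal 8 of the 11 lay above the background level, and Acat2, Hsd17b7 and Lbr lay below it. Of the 8 above it, 7 were not flat and all 7 were lowest in replicate 2. These differences were mostly small: the median SD of the 11 was 0.0853 and their median deviations were 0.05, -0.12, 0.03 and 0.00 in replicates 1 to 4. Several of these enzymes, like the genes above, had been seen in earlier results of these arrays, so the count is no independent support.

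Among the early enzymes, Acat2, which joins acetyl-CoA units, gave 8.25, 7.88, 8.05 and 7.92. Mevalonate kinase (Mvk) gave 8.73, 8.59, 8.75 and 8.68 and phosphomevalonate kinase (Pmvk) 8.68, 8.67, 8.72 and 8.85. In Pmvk replicate 2 lay only 0.01 below replicate 1. The decarboxylase Mvd was flat at 8.43. Farnesyl diphosphate synthase (Fdps), the step between Idi1 and Fdft1, gave 11.43, 11.14, 11.45 and 11.51. Fdps was the 1 other enzyme whose brightest probe set stood at least 0.25 below the next rat, by 0.29.

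Among the late enzymes, lanosterol synthase (Lss) gave 9.10, 8.87, 9.09 and 8.91 with its brightest probe set, and 8.98, 8.58, 9.14 and 9.02 with the second one, a gap of 0.40. The sterol reductase Tm7sf2 gave 10.37, 9.51, 9.91 and 9.74. Tm7sf2 had the largest SD of this list, 0.36, and like the brightest probe set of Cyp51 it was high in replicate 1 and low in replicate 2. Lbr, which carries the same reductase activity in the nuclear membrane, gave 8.17, 8.10, 8.08 and 8.15 and was the 1 enzyme lowest in another rat, replicate 3.

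Nsdhl and Hsd17b7 act with Msmo1 in removing the methyl groups. Nsdhl gave 10.02, 9.95, 10.03 and 10.02, a range far narrower than that of Msmo1. Hsd17b7 gave 8.19, 7.84, 8.15 and 7.91, and its second probe set 7.98, 7.85, 7.99 and 7.97. All 8 values of Hsd17b7 lay under the background level of 8.26. The isomerase Ebp gave 10.26, 10.08, 10.19 and 10.26. Array values of the remaining 3 enzymes of the list were not analysed here.

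**Figure D4:**
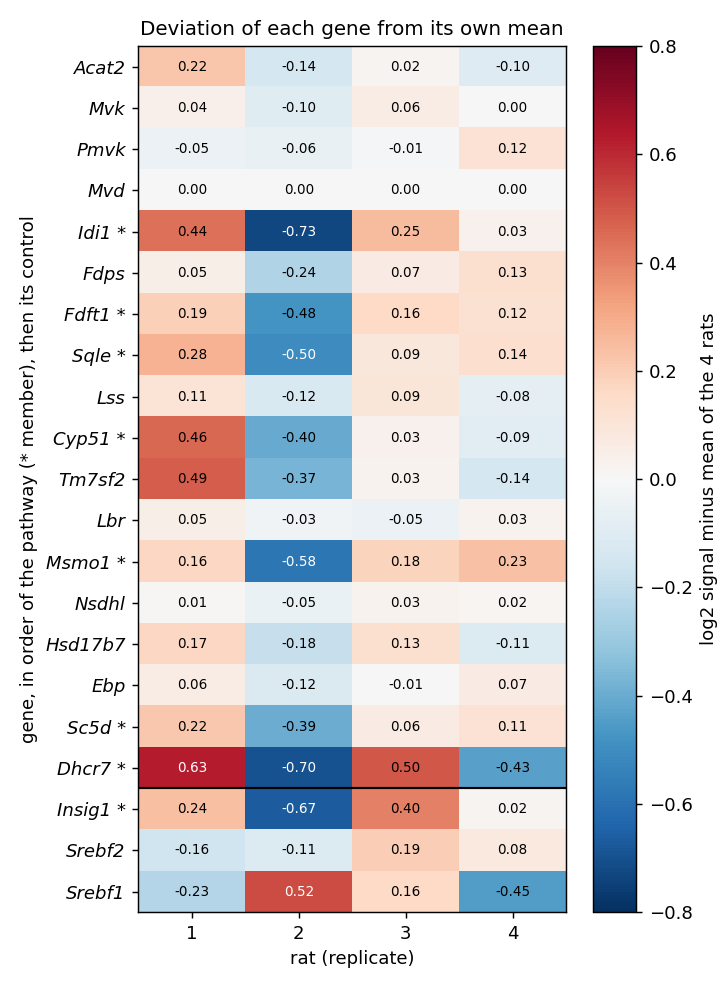
Deviation of each gene's brightest probe set from its mean over the 4 rats (colour and printed value, log2 signal), with genes as rows in the order of the pathway and replicates as columns. Stars mark the 8 genes, and the line separates the enzymes from Insig1, Srebf2 and Srebf1. The column of replicate 2 is below 0 in every enzyme except the flat Mvd, and Srebf1 is at 0.52 there.

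Of 9 genes that control the SREBP proteins other than Insig1, 7 were measured. Srebf2, the gene of SREBP-2, gave 9.66, 9.72, 10.02 and 9.90, lowest in replicate 1. Its second probe set gave 7.55, 7.49, 7.55 and 7.71, lowest in replicate 2, and all of these values lay under the background level of 8.26. Scap, the escort, gave 9.18, 9.31, 9.20 and 9.29, and Insig2, the other Insig protein, 11.04, 11.12, 10.95 and 11.12. None of the 6 controllers that were not flat was lowest in replicate 2 by its brightest probe set, against 25.8% of named genes that were not flat. The protease genes Mbtps1 and Mbtps2, whose products release SREBP, had means of 8.79 and 7.78 and SDs of 0.02 and 0.00. Rnf139, a ubiquitin ligase of the same membrane, gave 8.47, 8.61, 8.51 and 8.47.

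Srebf1, which encodes the SREBP-1 proteins that drive fatty acid synthesis, deviated by -0.23, 0.52, 0.16 and -0.45 in replicates 1 to 4. The medians of the 8 sterol genes were 0.26, -0.54, 0.17 and 0.07. Srebf1 thus had the other sign in replicates 1, 2 and 4 and the same sign in replicate 3. Its brightest probe set gave 10.77, 11.53, 11.17 and 10.56 and its second one 10.05, 10.74, 10.58 and 9.89. Both were highest in replicate 2, the rat in which the sterol genes were lowest, and both were lowest in replicate 4. Of the 6 controllers that were not flat, 3 were highest in replicate 2, against 24.1% of named genes that were not flat.

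Fatty acid synthesis is the nearest neighbouring pathway. Of its 13 measured genes, 12 were not flat, and 2 of them were lowest in replicate 2, against 25.8% of named genes that were not flat, so the count is near its background. Replicate 4 was lowest in 6 of the 12, against 25.3%. Of the 12, 7 were highest in replicate 3, against 28.5%. Their median deviations were 0.00, 0.01, 0.06 and -0.13 in replicates 1 to 4. The stearoyl-CoA desaturase gene Scd gave 11.58, 11.80, 10.71 and 10.71, highest in replicate 2. Thrsp, a regulator of fat synthesis, gave 10.31, 11.09, 11.13 and 10.23. The desaturase gene Fads1 gave 11.51, 11.03, 11.28 and 11.07, lowest in replicate 2 as the sterol genes were. The difference between the 2 pathways in replicate 2 was not tested, since it rests on 1 rat.

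**Figure D5:**
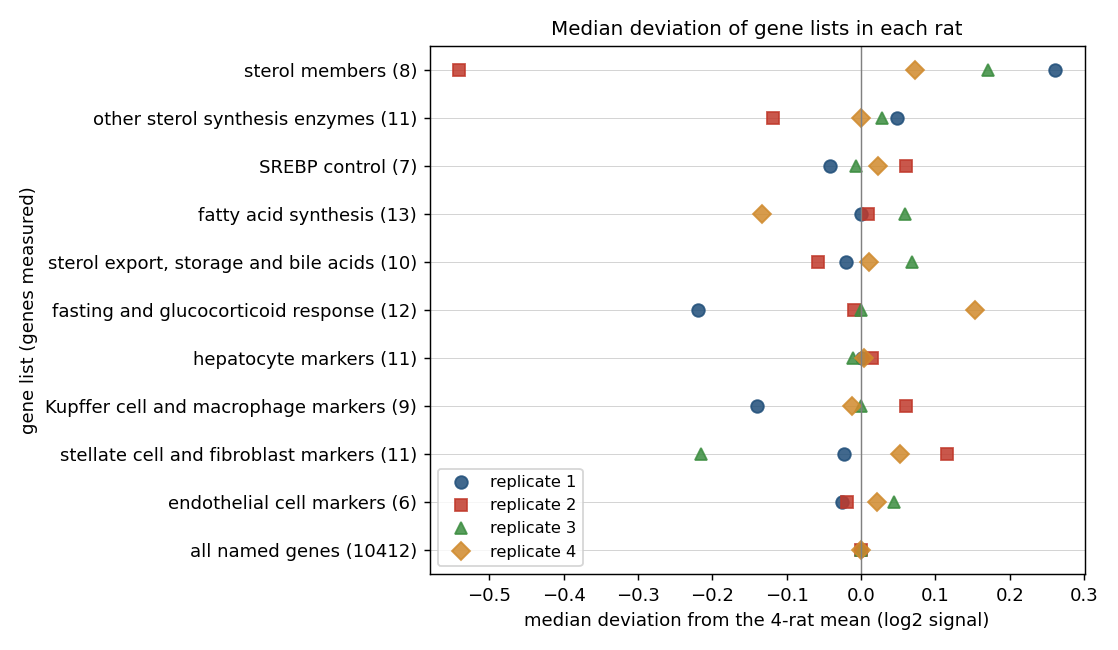
Median deviation from the 4-rat mean (horizontal axis, log2 signal) of gene lists (rows, with the number of genes measured) in replicates 1 to 4 (colours and marker shapes). The 8 sterol genes reach -0.54 in replicate 2, where fatty acid synthesis is at 0.01 and hepatocyte markers at 0.01.

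Genes of sterol export, storage and bile acids, 10 of 12 measured and 2 of these flat, had a median SD of 0.102. Cyp7a1, which opens the main route from cholesterol to bile acids, gave 10.32, 9.77, 10.10 and 9.94, lowest in replicate 2. Cyp8b1, which sets the kind of bile acid, gave 10.33, 10.83, 11.54 and 10.98, lowest in replicate 1. Cyp27a1, a mitochondrial P450 of bile acid synthesis, gave 10.96, 10.72, 11.04 and 11.34, lowest in replicate 2. Of 9 genes listed as other SREBP-2 targets and for cholesterol uptake, 5 were measured, with a median SD of 0.030. The largest SDs among them were 0.07 for the lipoprotein receptor Lrp1 and for Lipa, the lysosomal lipase. Lrp1 gave 9.83, 9.71, 9.84 and 9.71 and Lipa 10.27, 10.16, 10.30 and 10.29. Of the 3 genes of this list that were not flat, these 2 were lowest in replicate 2, against 25.8% of named genes that were not flat. In Lrp1 replicate 2 lay only 0.001 below replicate 4. The remaining 1 was lowest in replicate 1. The isoprenoid branch, which leaves the pathway at the farnesyl step, had 6 measured genes, of which 2 were flat. Its median SD over all 6 was 0.031, and its largest SDs were 0.06 for Dhdds and for Rabggta. The mean of Rabggta lay under the background level of 8.26.

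Markers of other cell types and RNA quality are given beside the low values of replicate 2. For hepatocyte markers the median deviation in replicates 1 to 4 was 0.00, 0.01, -0.01 and 0.00. Kupffer cell and macrophage markers, 9 of 12 measured, had a mean signal of 9.53, 9.78, 9.71 and 9.66, and 5 of the 7 that were not flat were highest in replicate 2, against 24.1% of named genes that were not flat. Their largest SDs were those of Cd14 (0.37) and C1qa (0.25), both lowest in replicate 1. Stellate cell and fibroblast markers, 11 of 11 measured, had 8.40, 8.56, 8.17 and 8.57. Of the 8 that were not flat, 5 were highest in replicate 2, against 24.1%, and 6 lowest in replicate 3, against 22.1%. The collagen gene Col1a1 gave 8.43, 8.88, 7.76 and 9.09, and Lum had an SD of 0.45. Lum, and some of the markers highest in replicate 2, had means under the background level of 8.26. Endothelial markers, 6 of 10 measured, had 8.82, 8.82, 8.95 and 8.86, with the largest SDs in Eng (0.23) and Fcgr2b (0.14). Among hepatocyte markers Apoa1 (0.32) and Hnf4a (0.21) had the largest SDs. Among bile duct markers these were Epcam (0.10) and Spp1 (0.03), among blood markers Hbb (0.40) and Cd74 (0.15), and among markers of fat, gut and pancreas Fabp2 (0.05) and Cpa1 (0.04). The means of Epcam, Spp1, Fabp2 and Cpa1 lay under the background level too. No listed marker was at 0, since log2 signals on these arrays do not fall below 5.98. In a bulk sample fewer cells of a type and less RNA per cell cannot be told apart. The difference between the 3′ and 5′ signals of beta-actin, a sign of RNA breakdown, was 0.85, 0.63, 0.54 and 0.66, and that of Gapdh 0.48, 0.52, 0.54 and 0.54, so replicate 2 was at neither end in either. The part of these markers in the result was not tested.

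Genes of the fasting and glucocorticoid response, listed because feeding state acts on the pathway, were lowest in replicate 1 in 7 of the 10 that were not flat, against 26.8% of named genes that were not flat. In 7 of the 10 replicate 4 was highest, against 20.7%. Their median deviations were -0.22, -0.01, 0.00 and 0.15. The phosphatase gene Dusp1, with the largest SD of the list at 0.82, gave 8.01, 9.43, 9.005 and 9.94, lowest in replicate 1 and highest in replicate 4. The kinase gene Sgk1 gave 8.81, 10.23, 9.76 and 8.67 and Angptl4, an inhibitor of lipoprotein lipase, 9.24, 8.19, 9.07 and 9.53. Angptl4 was thus lowest in replicate 2, by 0.88, and Sgk1 highest there. The clock list had 10 measured genes, of which 4 were flat, and the median SD over all 10 was 0.026. Its largest SDs were 0.24 for Per2 and 0.22 for Nr1d2. Per2 and Nr1d2 both had means under the background level of 8.26.

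The 8 named genes outside the pathway and its control whose deviations were most like the median pattern of the sterol genes were found by the root mean square difference over the 4 rats. A gene with no change would have 0.314. The closest was Cyp1a2, a P450 that oxidises caffeine, with 0.0652 and signals of 12.96, 12.26, 12.82 and 12.72. Next came Acss2, the cytosolic enzyme that makes acetyl-CoA from acetate, with 0.0668 and signals of 9.76, 8.93, 9.79 and 9.52. The others were Cyp3a18 (0.0718), Ppm1k (0.0803), Vnn1 (0.085), Decr1 (0.103), Atf4 (0.109) and Retsat (0.113). On the same measure Fdft1 had 0.0532, Sqle 0.0556 and Dhcr7 0.362, against 0.314 for a gene with no change. The measure counts the size of a deviation as well as its direction, and these genes also helped to set the pattern. Dhcr7 deviated by 0.63, -0.70, 0.50 and -0.43. It had the sign of the pattern in replicates 1 to 3, with larger deviations, and the other sign in replicate 4. Likeness over 4 rats is a description, and with this many genes some will match any pattern.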

How the data were processed

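Liver RNA of 4 control rats was measured on Affymetrix arrays, RAE230A per the scanner settings and RAE230-2 per the labels' protocol. The authors deposited a log2 signal for each of 15923 probe sets. Per the submitters' processing notes the authors used R 2.4.1, affy 1.12.2, GCRMA and RMA. Their order, and which method made the final table, is not given in the sources used here. Precision is limited by the number of arrays. All were run on fluidics station 1, each on a module of its own, so no batch could be fitted.

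Of the probe sets, 12789 carried 1 gene symbol, 312 several and 2822 none, and only the first were named. Of these, 12754 matched the RefSeq gene table of GRCr8, used for names and promoter sequence. Genes were represented by their probe set with the highest mean. SDs, deviations from the 4-rat mean, the lowest rat and likeness were computed in Python 3.11.15 with numpy 2.4.6 and pandas 2.3.3, and array trends with statsmodels 0.14.6 (lowess, fraction 0.3). The lowest rat, likeness and the removal of array trends were tested on simulated data, and the SDs were not. Every simulated gene had the same noise, whereas 4410 of the 10412 named genes here were flat. With 1 group there was no test.

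The genes and lists were chosen with earlier results of these data known. Myh1 was left out of the background list because those results showed signal in its probe sets. The text names all members, every measured gene of the other enzymes and SREBP control, and 8 genes by likeness. In each other list it names the 2 genes with the largest SD of the brightest probe set. Alb, Cyp7a1, Fads1 and Angptl4, given beyond that, were chosen after their values were seen. Alternatives covered the array scaling, the probe set chosen, the rats used, the background level and the motif.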

Additional observations from a re-analysis of the deposited data

Results flagged for a closer look

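The sets of 4 values looked at were all listed probe sets, the genes named by likeness and the median deviations of 4 gene lists. These lists were the 8 sterol genes, the other enzymes, SREBP control and fatty acid synthesis, so the sets overlap. In 10 of the 175 sets that were not flat, a single rat stood apart, and chance alone gives about 5% for separate sets. Standing apart means that the gap to the next rat takes most of the range of the 4 values, so a small difference can count. In 5 of them replicate 2 was low: Fdft1 (9.55, brightest probe set), Msmo1 (9.64), the second probe set of Hsd17b7 (7.85, under the background level), Decr1 (10.13), which encodes a mitochondrial reductase of unsaturated fatty acids, and Retsat (11.51), a retinol saturase. Fdft1 and Msmo1 belong to the genes chosen on these same signals, and Decr1 and Retsat were named for their likeness to them, so these low values follow from the choice. In 2 sets replicate 1 was low: the apolipoprotein gene Apoa1 (12.34) and the macrophage marker Cd14 (8.95). The others were high values: the second probe set of Elovl5, a fatty acid elongase, in replicate 2 (10.33), Cps1, a urea cycle enzyme, in replicate 3 (12.67), and Gfap of the background list in replicate 1 (8.30). Dhcr7, with the largest SD of the 8 sterol genes, was not among them because replicate 4 was low too.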

How the results depend on the processing

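No paired analysis was possible because all 4 samples form 1 group. The settings tried were quantile normalization, removal of array trends, the mean of a gene's probe sets and the mean over genes in place of the median. Where a setting was run, the number of the 8 genes lowest in each rat was unchanged. Their median deviations moved by less than the spread between rats. Their median SD was 0.359 to 0.369, against 0.372. Single levels did move: with the mean of probe sets Fdft1 averaged 9.59, against 10.02 with the brightest one, and Cyp51 10.24, against 10.79. The number of genes lowest in replicate 2 was 8 whichever other rat was left out, and the median deviation there ran from -0.50 to -0.45. Leaving out replicate 2 changed the counts: 1, 2 and 5 genes were then lowest in replicates 1, 3 and 4, against 0 in each with all rats, and their median deviations were 0.10, -0.01 and -0.12. The median SD of the 8 genes ran from 0.145 without replicate 2 to 0.444 without replicate 3. The SD of Cyp51 was 0.225 without replicate 1, against 0.359 with all rats. With flat genes included, 14.9% of named genes were lowest in replicate 2. With Myh1 in the background list, 2 genes were above background. The shorter core of the sterol regulatory element was found in 1 promoter of the 7. Of the 8 genes named by likeness, 8 were shared with removal of array trends, 7 with quantile normalization and 8 with the mean of probe sets, settings added after seeing the data. Precision is limited by the number of rats, with 1 array each.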
